A study of Mus musculus with 16 samples.

Results

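Cholesterol is built in the epithelial cell from acetyl units through the mevalonate pathway, and the genes of that pathway are switched together by the transcription factor SREBP2, which is held in the endoplasmic reticulum by Insig proteins while sterol is plentiful and released to the nucleus when sterol runs low. SREBP proteins bind sterol regulatory elements in the promoters of these genes, usually next to a CCAAT box bound by NF-Y. The colon epithelium renews itself from crypt stem cells that depend on Wnt, and both dividing and differentiating cells need sterol for new membrane.

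The genes described here are 7 sterol genes of 54123 genes counted in the whole series, taken as a list of names and not by a threshold on a measured value. They are Hmgcs1, which makes the hydroxymethylglutaryl-CoA that enters the mevalonate pathway; Idi1, which isomerises isopentenyl diphosphate; Fdft1, the squalene synthase; Sqle, which epoxidises squalene; Lss, which closes the sterol ring as lanosterol; Dhcr7, which reduces 7-dehydrocholesterol in a last step to cholesterol; and Insig1, the endoplasmic reticulum protein that retains SREBP and is itself a target of SREBP. Although the list was titled for synthesis and uptake, none of the 7 takes up lipoprotein or sterol, so uptake, trafficking and storage genes are given from a separate list. All 7 had reads in all 16 libraries and passed the filter on low counts, with 353 to 1452 reads per library for Dhcr7, the lowest, and 2756 to 30253 for Insig1.

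The series holds 16 RNA libraries made from mouse colon organoids, which are epithelial structures grown in Matrigel from the crypts of the proximal or the distal colon of female mice 8 weeks old. All groups share a heterozygous BrafV600E allele that is expressed only after Cre and a heterozygous tdTomato reporter, and Cre was not used for these libraries. The 8 groups combine region (proximal or distal), guide and medium, with 2 libraries each. The replicate number is taken here to stand for the mouse, although the labels do not say that it is the same mouse across groups. Scramble-sgRNA organoids carry Cas9 with a guide without a target, and Cdx2-sgRNA organoids carry Cas9 with a guide to Cdx2, a homeobox factor that maintains intestinal identity. The Cdx2-sgRNA lines were grown from single cells with frameshifts in both alleles, whereas no such step is described for the Scramble-sgRNA lines, so that loss of Cdx2 and the choice of clone cannot be told apart. WENR-plus medium holds Wnt3a, EGF, Noggin and R-spondin 1 and WENR-minus medium lacks all of them at once, so that their shares in a medium effect cannot be told apart either. In the fourth month of culture all organoids had 2 days of WENR-plus, followed by 3 days of WENR-plus or WENR-minus.

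Libraries held 12465194 to 18922143 estimated counts. Levels in CPM are counts relative to the size of the library after scaling by its TMM factor. Summed over 7 epithelial markers (Epcam, Cdh1, Krt8, Krt18, Krt19, Vil1 and Cldn7) the level was 3972 to 5396 CPM in WENR-plus and 12090 to 18060 CPM in WENR-minus libraries. In contrast, 6 fibroblast markers summed to at most 1.12 CPM. The 6 immune markers summed to at most 3.64 CPM outside the proximal Cdx2-sgRNA libraries, in which they reached 6.56 to 25.8 CPM. These reads came mostly from Cd68 and Csf1r, and Cd3e and Cd79a had at most 1 read in a library. Transcripts of Cdx2 itself, which a frameshift need not remove, were at 127 to 203 CPM in proximal Scramble-sgRNA libraries and 29.9 to 73.9 CPM in proximal Cdx2-sgRNA libraries. In distal organoids the ranges were 67.9 to 112 CPM with the Scramble guide and 50.2 to 126 CPM with the Cdx2 guide, and thus overlapped. In bulk RNA, a smaller number of cells that express a gene and less RNA per cell cannot be told apart.

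The members lie on 6 chromosomes of GRCm38. Hmgcs1 is at chr13:119690379-119708260 and Idi1 at chr13:8885501-8892451, both on the plus strand. The other genes on the plus strand are Sqle at chr15:59315077-59331192, Lss at chr10:76531588-76557138, Dhcr7 at chr7:143823145-143848410 and Insig1 at chr5:28071363-28078662. Fdft1, at chr14:63145150-63179578 on the minus strand, overlaps Ctsb on the opposite strand, which had 2044 to 6228 reads per library. The kit used marks the strand, and Salmon was left to detect the library type by itself, with the type it chose not given in the sources used here. Antisense genes overlapping Hmgcs1, Idi1 and Lss had at most 17 reads in a library, and Idi2, the paralog of Idi1, had 0.

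Of the members, 5 have a promoter window in the RefSeq set used here (250 bases before to 50 after an annotated start, GRCm38.p6), namely Hmgcs1, Idi1, Lss, Dhcr7 and Insig1. The letters TCACNCCAC, a form of the sterol regulatory element, were searched on both strands and found for 1 of the 5 members, Hmgcs1, 137 bases before its start, and for 0 of 12 other sterol enzymes, compared with 1.44% of all 27025 genes with a window. CCAAT was found for all 5 members and for 11 of 12 other sterol enzymes with a window, compared with 41.1% of all genes. The GC box GGGCGG was found in the same numbers, 5 of 5 and 11 of 12, compared with 38.2% of all genes. TTTATNG, a Cdx motif, was found for 0 of the 5 members and 1 of the 12 other enzymes, compared with 12.5% of all genes. The sequences below show the sterol element, found in Hmgcs1 alone, and the CCAAT box that the 5 promoters share; all read 5′ to 3′ on the strand of the gene, and capitals mark the motif (the sterol element in the first line, CCAAT or its reverse complement ATTGG in the others, 1 box per gene where Hmgcs1, Idi1 and Dhcr7 hold more).
Hmgcs1, chr13:119690204-119690232: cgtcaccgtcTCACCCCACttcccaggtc
Hmgcs1, chr13:119690296-119690324: cccgcctctcATTGGctgaaagcggatcg
Idi1, chr13:8885551-8885579: cctccagctgATTGGcgagcccgggcatg
Lss, chr10:76531533-76531561: tgatgctctgATTGGccgagctcgcatcg
Dhcr7, chr7:143830155-143830183: tccacttccgATTGGtcgtctgtgacctc
Insig1, chr5:28071186-28071214: ccctcctcccATTGGctccggcggcctca
These boxes begin 45 bases before the start in Hmgcs1 and Idi1, 62 in Lss and 49 in Dhcr7, at one of its 3 annotated starts, but 216 bases before the start in Insig1. A match of letters is a description and not a bound site.

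Levels were compared between genes per length, as TPM (transcript abundance relative to length and to the library's total) averaged over the 2 libraries of a group. In proximal Scramble-sgRNA organoids in WENR-plus, Hmgcs1 was highest at 259.6 ± 54.3 TPM (SD, n = 2), followed by Idi1 at 170.5 ± 2.71, Insig1 at 141 ± 19.4 and Fdft1 at 130.2 ± 17.6 TPM. Sqle, Lss and Dhcr7 were lower, at 78.1 ± 10.8, 46.4 ± 0.427 and 46.3 ± 11.9 TPM. In distal Scramble-sgRNA organoids in WENR-minus, Insig1 was highest of the 7 at 843 ± 233 TPM, above Hmgcs1 at 436 ± 102 TPM. Across the 16 libraries the highest CPM was 14.9 times the lowest for Insig1 and 10.5 times for Hmgcs1, but 3.42 times for Lss and 4.14 times for Dhcr7.

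**Figure D1:**
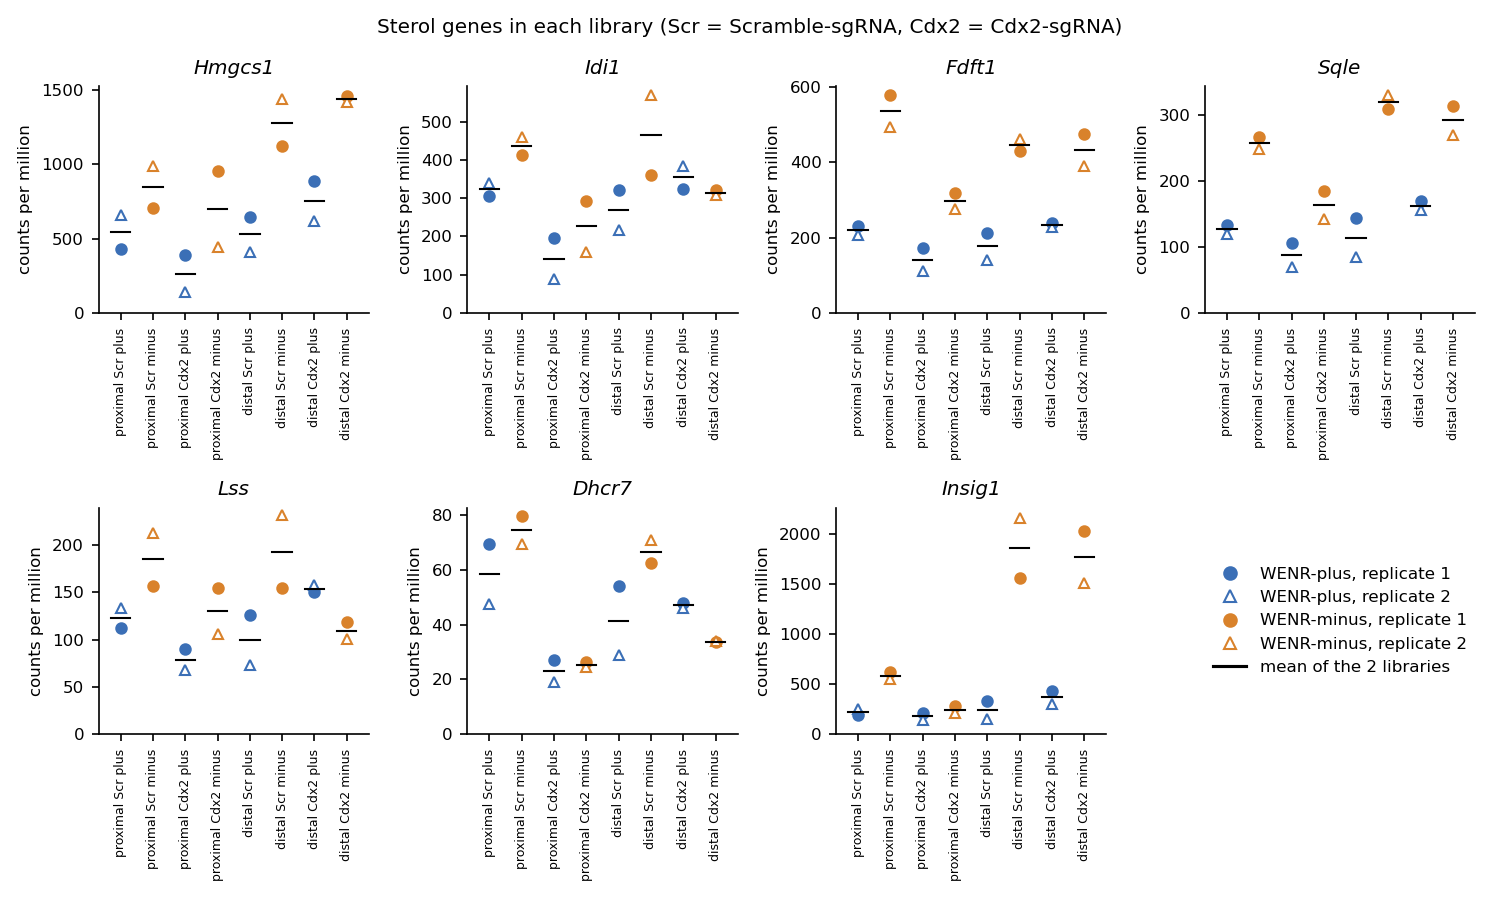
CPM (y axis, linear from 0, a scale of its own for each gene) of the 7 sterol genes in each of the 16 libraries, by group (x axis); circles are replicate 1, triangles replicate 2, blue WENR-plus, orange WENR-minus, and lines the mean of the 2 libraries. The 4 distal WENR-minus libraries stand above all others for Insig1 (1514 to 2169 CPM), and the 2 proximal Cdx2-sgRNA WENR-plus libraries have the lowest mean for all 7 genes.

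The members' groups had one feature in common, since the proximal Cdx2-sgRNA WENR-plus group had the lowest mean CPM of the 8 for each of the 7 genes. It stood below the next group without overlap of libraries only for Hmgcs1, at 388 and 140 CPM against 647 and 412 CPM in distal Scramble-sgRNA WENR-plus. At the upper end the distal Scramble-sgRNA WENR-minus group had the highest mean for Sqle, Idi1, Lss and Insig1, the distal Cdx2-sgRNA WENR-minus group for Hmgcs1, and the proximal Scramble-sgRNA WENR-minus group for Fdft1 and Dhcr7. The top 2 groups overlapped for all members but Fdft1. Over the 16 libraries each member was set against the mean of the other 6 on standardised log2 CPM, as a description, with libraries that share medium, guide and mouse. Pearson's r was 0.93 for Sqle, 0.88 for Fdft1 and Idi1, 0.87 for Hmgcs1, 0.81 for Lss and 0.78 for Insig1, and lowest for Dhcr7 at 0.67. Among pairs, Sqle and Fdft1 were most alike (r = 0.96) and Dhcr7 and Insig1 least (r = 0.42).

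The first comparison asks how the sterol genes respond when the Wnt, EGF, Noggin and R-spondin factors are withdrawn. In control organoids Insig1, Fdft1 and Sqle rose without the factors in both regions and Lss rose in distal organoids, whereas Hmgcs1, Idi1 and Dhcr7 passed in neither region. In proximal Scramble-sgRNA organoids Insig1 was at 189 and 252 CPM in WENR-plus and 623 and 551 CPM in WENR-minus. Its log2 fold change was 1.41 ± 0.36 (SE, 2.67-fold, edgeR adjusted p = 0.0137). Fdft1 was at 231 and 207 CPM with the factors and at 579 and 493 CPM without them, a log2 fold change of 1.29 ± 0.23 (edgeR adjusted p = 0.00214). Sqle went from 133 and 119 CPM to 267 and 249 CPM, a log2 fold change of 1.03 ± 0.25 (edgeR adjusted p = 0.0111). Every WENR-minus library stood above every WENR-plus library for these genes. Thus 3 of the 7 members rose and 0 fell in proximal control organoids, compared with 16.4% of all 15289 tested genes called higher and 12.9% lower. With 1 library left out the log2 fold change was 1.27 to 1.67 for Insig1, 0.99 to 1.16 for Sqle and 1.19 to 1.47 for Fdft1. The calls of Insig1 and Sqle did not hold in every such fit. The 4 members that did not pass had log2 fold changes of 0.63 (Hmgcs1), 0.59 (Lss), 0.43 (Idi1) and 0.35 (Dhcr7). With the culture as a block, since the 2 media were given to the same culture, Hmgcs1 passed too (0.64, edgeR adjusted p = 0.0456). The median of the 7 was 0.63, and that of all tested genes -0.06.

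In distal Scramble-sgRNA organoids Insig1 was at 335 and 153 CPM in WENR-plus and at 1567 and 2169 CPM in WENR-minus. This is a log2 fold change of 2.94 ± 0.38 (7.65-fold, edgeR adjusted p = 0.000188), and both WENR-minus libraries stood far above both WENR-plus libraries. Sqle rose from 143 and 83.9 CPM to 308 and 331 CPM (log2 fold change 1.49 ± 0.26, edgeR adjusted p = 0.000881). Fdft1 rose from 212 and 141 CPM to 430 and 461 CPM (1.33 ± 0.23, edgeR adjusted p = 0.000951). Lss rose from 126 and 72.9 CPM to 154 and 231 CPM (0.96 ± 0.30, edgeR adjusted p = 0.0232), but in TPM its libraries overlapped (34.9 and 21.8 against 34.25 and 62.8). Hmgcs1 was at 647 and 412 CPM with the factors and 1125 and 1439 CPM without them, a log2 fold change of 1.28 ± 0.48 that missed the threshold (edgeR adjusted p = 0.0519). Dhcr7 (0.69 ± 0.27, adjusted p = 0.0618) and Idi1 (0.79 ± 0.38, adjusted p = 0.115) missed it as well. In all, 4 of 7 members rose and 0 fell, compared with 20.3% of tested genes called higher and 20.2% lower. All 7 passed with DESeq2, with the culture as a block or with no filter on low counts, and with the mouse as a block Hmgcs1 and Dhcr7 passed too (adjusted p = 0.0405 and 0.0253). With any 1 of the 4 libraries left out the count was 3 to 5.

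The same comparison was made after the Cdx2 guide. In proximal Cdx2-sgRNA organoids Fdft1 (171 and 112 CPM against 318 and 276 CPM; 1.07 ± 0.23, edgeR adjusted p = 0.0128) and Sqle (106 and 69.1 CPM against 185 and 143 CPM; 0.91 ± 0.25, adjusted p = 0.0372) rose, so that 2 of 7 members passed compared with 8.33% of tested genes called higher and 5.17% lower. Insig1 was at 214 and 146 CPM in WENR-plus and 280 and 210 CPM in WENR-minus, with overlapping libraries and a log2 fold change of 0.45 ± 0.36 (edgeR adjusted p = 0.46). Hmgcs1 had the largest fold change of the 7 here, 1.40 ± 0.48 (adjusted p = 0.0765), with 388 and 140 CPM against 957 and 441 CPM. With the culture as a block Hmgcs1 passed (1.48, edgeR adjusted p = 0.00204), as did Idi1 (0.73, adjusted p = 0.0474). This count rests on single libraries, since it was 0 without the WENR-plus library of replicate 2, 1 without the WENR-minus library of replicate 1, and 4 without the WENR-plus library of replicate 1; in a fit of these 4 libraries alone it was 0, but that fit called 0 of all genes.

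In distal Cdx2-sgRNA organoids 3 members rose. Insig1 rose from 438 and 305 CPM to 2031 and 1514 CPM (2.25 ± 0.37, 4.77-fold, edgeR adjusted p = 0.000455). Fdft1 rose from 240 and 229 CPM to 476 and 390 CPM (0.89 ± 0.23, adjusted p = 0.0076), and Sqle from 169 and 156 CPM to 314 and 270 CPM (0.84 ± 0.25, adjusted p = 0.0167). Dhcr7 was at 47.8 and 46.2 CPM in WENR-plus and at 33.5 and 34.0 CPM in WENR-minus, a log2 fold change of -0.48 ± 0.27 that did not pass (adjusted p = 0.172). Lss (-0.49 ± 0.29, adjusted p = 0.199) and Idi1 (-0.17 ± 0.37, adjusted p = 0.734) also had values below 0. Hence 3 of 7 rose and 0 fell, compared with 23.0% of tested genes called higher and 24.0% lower, and without the WENR-minus library of replicate 1 the count was 1. With the culture as a block Hmgcs1 passed as well (0.96, edgeR adjusted p = 0.00525). In a fit of these 4 libraries alone 6 members passed, 4 of them higher and 2 lower, namely Lss (-0.52, adjusted p = 0.0246) and Dhcr7 (-0.51, adjusted p = 0.0197).

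**Figure D2:**
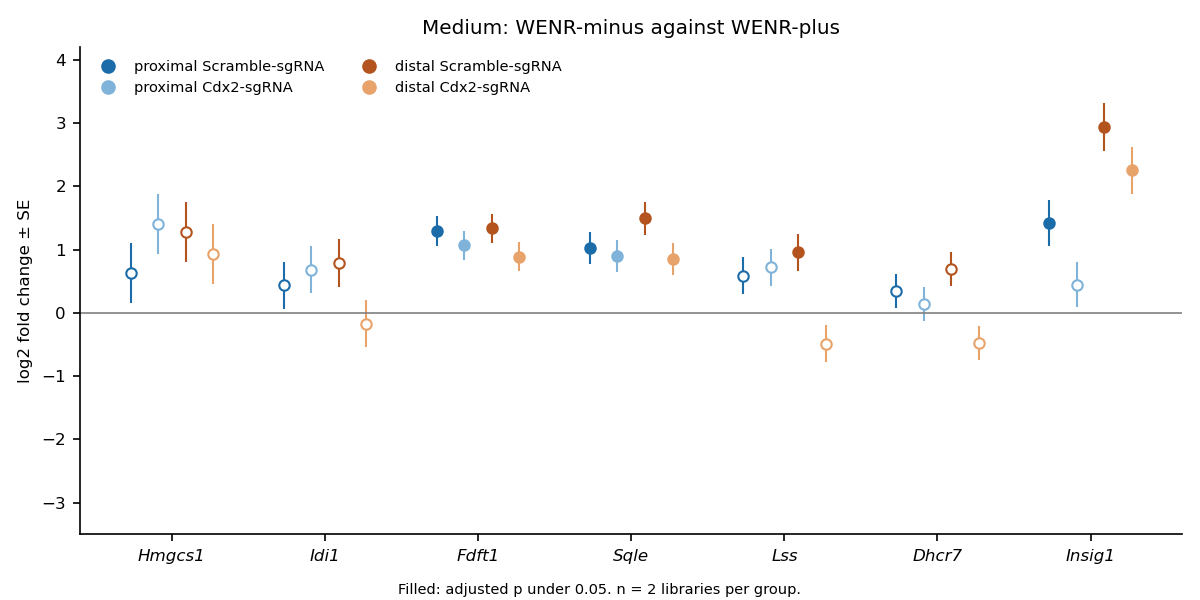
Log2 fold change (y axis) of WENR-minus against WENR-plus for the 7 sterol genes (x axis) in each kind of organoid, from edgeR with n = 2 libraries per group; bars are SE and filled points have an adjusted p under 0.05. Sqle and Fdft1 are filled in all 4 kinds of organoid, Insig1 in all but proximal Cdx2-sgRNA, and Idi1, Lss and Dhcr7 lie below 0 in distal Cdx2-sgRNA only.

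Whether the guide changed the response to medium was tested by the difference of the medium effects. In distal organoids this difference was -1.44 ± 0.42 for Lss (edgeR adjusted p = 0.315), -1.16 ± 0.38 for Dhcr7 (adjusted p = 0.373) and -0.96 ± 0.53 for Idi1 (adjusted p = 0.597), and 0 of 7 members passed in edgeR, in a comparison in which 0.00% of tested genes did. At an unadjusted p under 0.05, 1457 genes and 2 members passed, and DESeq2 called 199 genes and 1 member. In proximal organoids it was -0.97 ± 0.50 for Insig1 (adjusted p = 0.301), and 0 of 7 passed in edgeR and DESeq2 compared with 4.38% of tested genes in edgeR (0 members at an unadjusted p under 0.05). Between regions, the medium effect in Scramble-sgRNA organoids differed by -1.52 ± 0.51 for Insig1 (adjusted p = 0.341), again with 0 of 7 members in edgeR and DESeq2 and 0.0719% of tested genes in edgeR; Insig1 alone of the 7 reached 0.05 before adjustment. With no filter on low counts the difference passed for Insig1 between regions (-1.51, edgeR adjusted p = 0.00026, 454 of all genes) and between guides in proximal organoids (-1.02, adjusted p = 0.0217, 1718 genes). In distal organoids it then passed for Lss (-1.42, adjusted p = 0.000461) and Dhcr7 (-1.14, adjusted p = 0.024), with 354 genes called, so that these calls depend on the filter.

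The medium changed the state of the cells at the same time. In proximal Scramble-sgRNA organoids the stem cell receptor Lgr5 fell from a mean of 80.2 to 6.64 CPM (log2 fold change -3.58, edgeR adjusted p = 0.00243), and the differentiation genes Krt20 (5.09, adjusted p = 0.000401) and Car1 (5.38, adjusted p = 7.02e-05) rose. The proliferation gene Top2a fell as well (-2.09, adjusted p = 0.00258). In proximal Cdx2-sgRNA organoids Lgr5 fell too (-5.18, adjusted p = 0.00192), but Mki67 was at 0.37 (adjusted p = 0.591). In distal Scramble-sgRNA organoids 2 of the 10 cell state genes rose and 6 fell, with Lgr5 at -4.63 (adjusted p = 0.000478), Mki67 at -1.93 (adjusted p = 0.00293) and Krt20 at 5.33 (adjusted p = 0.000122). In distal Cdx2-sgRNA organoids 3 rose and 6 fell, with Lgr5 at -5.86 (adjusted p = 0.000112), Mki67 at -2.99 (adjusted p = 0.000164) and Krt20 at 6.02. Of the 7 epithelial markers 7, 3, 6 and 6 rose in proximal Scramble-sgRNA, proximal Cdx2-sgRNA, distal Scramble-sgRNA and distal Cdx2-sgRNA organoids, and 0 fell. In the same order, 16.4%, 8.33%, 20.3% and 23.0% of all tested genes were called higher. The shares called lower were 12.9%, 5.17%, 20.2% and 24.0%, and the counts of cell state genes stand against the same shares. The part of these changes in the sterol gene results was not tested.

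Most of the other 14 sterol enzymes on a list of the pathway rose in control organoids. Of these 12 rose and 1 fell in proximal Scramble-sgRNA organoids (16.4% and 12.9% of tested genes), with a median log2 fold change of 0.94, and 11 rose and 1 fell in distal Scramble-sgRNA organoids (20.3% and 20.2%), with a median of 1.06. The counts were 5 and 0 in proximal Cdx2-sgRNA (8.33% and 5.17%) and 5 and 2 in distal Cdx2-sgRNA organoids (23.0% and 24.0%), the last not far from the shares over all genes. DESeq2 called 9 of the 14 in either direction in proximal Cdx2-sgRNA organoids. It called 7 in distal Cdx2-sgRNA organoids, 13 in proximal controls and 12 in distal controls. Sc5d, the lathosterol oxidase, rose by 2.27 ± 0.24 in distal controls (edgeR adjusted p = 5.82e-05) and by 1.98 ± 0.23 in distal Cdx2-sgRNA organoids (adjusted p = 5.10e-05). Ebp, the sterol isomerase, rose in all 4 kinds of organoid, by 0.75 to 1.61 on the log2 scale. The enzyme that fell in controls was Lbr, which reduces a sterol double bond but is also a receptor for lamin B in the nuclear membrane (-1.08 in proximal, adjusted p = 0.00144; -1.41 in distal, adjusted p = 0.000176). In distal Cdx2-sgRNA organoids Lbr (-2.09, adjusted p = 1.11e-05) was joined by Acat2, the cytosolic thiolase (-1.41, adjusted p = 0.00201).

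Some genes that handle sterol beyond its synthesis passed as well. All counts in the lines that follow stand against 16.4% of tested genes called higher and 12.9% lower in proximal controls, 20.3% and 20.2% in distal controls, 8.33% and 5.17% in proximal Cdx2-sgRNA and 23.0% and 24.0% in distal Cdx2-sgRNA organoids, and several are near these shares. Among 10 genes of uptake, trafficking and storage, 4 rose and 0 fell in each control comparison, 1 and 0 in proximal Cdx2-sgRNA, and 5 and 0 in distal Cdx2-sgRNA organoids. Lipa, the lysosomal lipase that frees cholesterol from its esters, rose in all 4, by 2.31 ± 0.37 in proximal controls (edgeR adjusted p = 0.0012) and 2.83 ± 0.37 in distal controls (adjusted p = 0.000196), and least in proximal Cdx2-sgRNA organoids (1.35 ± 0.36, adjusted p = 0.0298). Npc1, which exports cholesterol from the lysosome, rose in proximal (1.58, adjusted p = 0.00299) and distal controls (1.86, adjusted p = 0.000654) and in distal Cdx2-sgRNA organoids (2.09, adjusted p = 0.000193), and was at 0.51 (adjusted p = 0.289) in proximal Cdx2-sgRNA organoids. Of the 10 genes of sterol sensing and SREBP processing, 5 rose and 0 fell in proximal and 4 rose and 2 fell in distal controls. Erlin1 and Erlin2, which act in the degradation of endoplasmic reticulum proteins, rose in both, by 1.22 (adjusted p = 0.000567) and 0.75 (adjusted p = 0.000539) in distal controls. Of the 10 genes of fatty acid synthesis, 1 rose and 1 fell in proximal and 3 rose and 1 fell in distal controls. Fads1 was the gene that fell in both (-1.74, adjusted p = 0.0369; -2.10, adjusted p = 0.0133). The elongase Elovl6 rose in all 4 kinds of organoid, by 0.53 to 0.96 on the log2 scale. In distal Cdx2-sgRNA organoids 1 rose and 5 fell, among them the desaturases Fads1 (-3.53, adjusted p = 0.000859) and Fads2 (-2.01, adjusted p = 0.00024) and the synthase Fasn (-0.94, adjusted p = 0.0015). Of the 8 genes of the isoprenoid branch, which takes its substrates from the same pathway, 2 rose and 0 fell in proximal and 3 rose and 1 fell in distal controls. Of 7 genes of sterol efflux and its receptor LXR, 2 rose in each control comparison, the receptor Nr1h2 and Lpcat3.

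**Figure D3:**
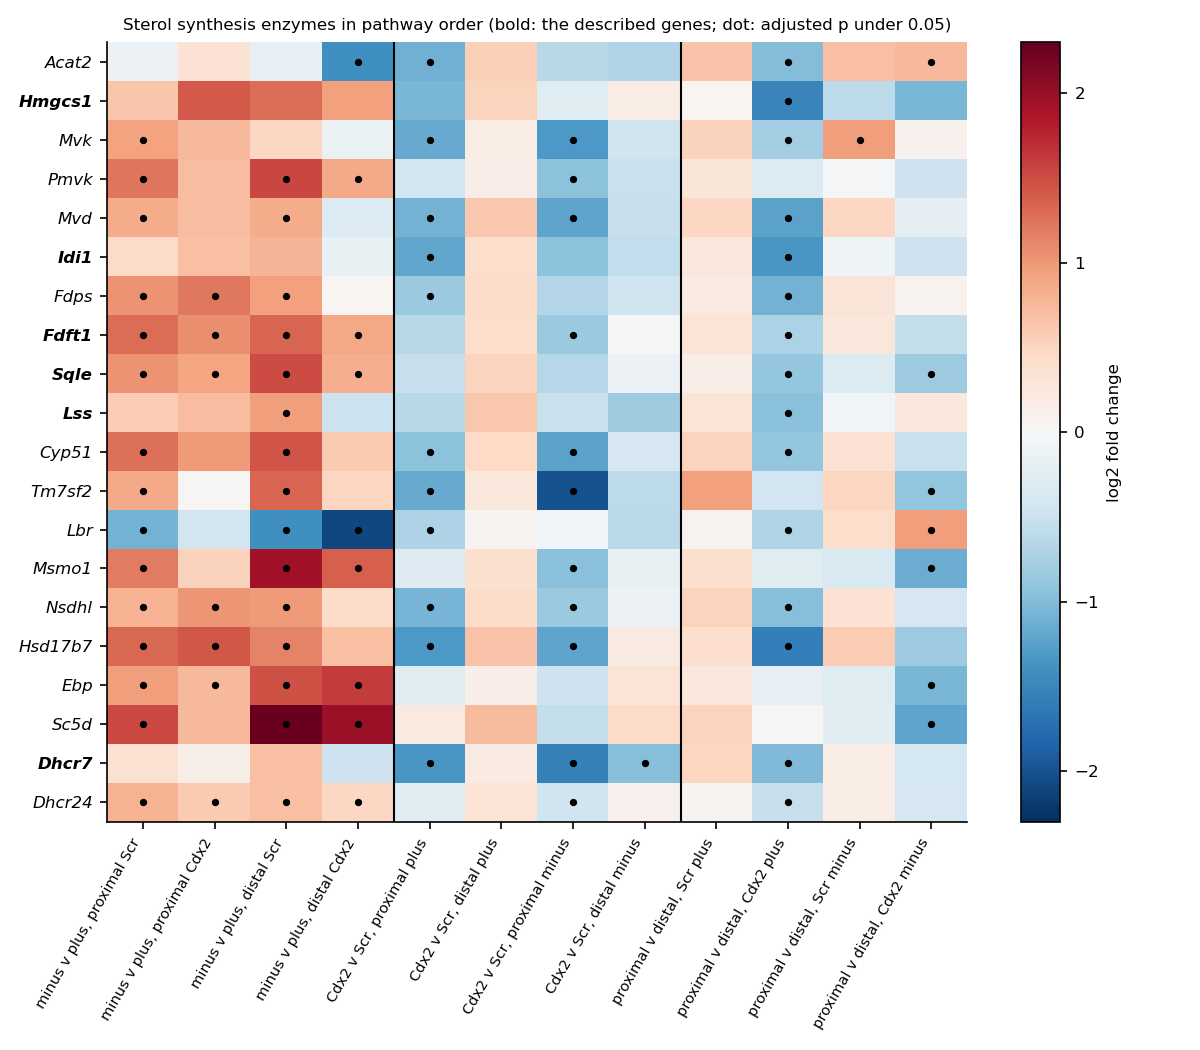
Log2 fold changes (colour, red higher and blue lower) of sterol synthesis enzymes (rows, in the order of the pathway, the 6 enzymes among the described genes in bold) in the 12 comparisons of 2 groups (columns, Scr for Scramble-sgRNA and v for against); dots mark an adjusted p under 0.05 in edgeR. The left block (medium) is mostly red with Lbr blue, and the middle block (guide) is mostly blue in both proximal columns and has a single dot, Dhcr7, in the distal ones.

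The second comparison asks what Cdx2-sgRNA did at a fixed region and medium. In proximal organoids Dhcr7 passed as lower with the Cdx2 guide in both media, Idi1 in WENR-plus, and Insig1 and Fdft1 in WENR-minus. Sqle, Lss and Hmgcs1 passed in neither. A pass in 1 medium is not a test between the media. The difference of the guide's effect between media passed for 0 of 7 members in edgeR. It was 0.25 ± 0.53 for Idi1 (edgeR adjusted p = 0.856) and -0.22 ± 0.32 for Fdft1 (edgeR adjusted p = 0.77). In WENR-plus Dhcr7 was at 69.4 and 47.6 CPM with the Scramble guide and at 27.0 and 19.3 CPM with the Cdx2 guide. The log2 fold change was -1.34 ± 0.27 (2.53-fold lower, edgeR adjusted p = 0.0051). In WENR-minus it was at 79.7 and 69.5 CPM against 26.2 and 24.7 CPM (-1.55 ± 0.27, 2.93-fold lower, adjusted p = 0.00161). The 4 Cdx2-sgRNA libraries lay below the 4 Scramble-sgRNA libraries.

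Idi1 also passed in WENR-plus, with 306 and 341 CPM against 195 and 87.3 CPM (-1.20 ± 0.38, edgeR adjusted p = 0.0393), and was at -0.95 ± 0.38 in WENR-minus (edgeR adjusted p = 0.0774). In a fit of the proximal WENR-plus libraries alone Idi1 did not pass in WENR-plus. With 1 library left out its log2 fold change there was -1.9 to -0.73. In WENR-minus Insig1 fell from 623 and 551 CPM to 280 and 210 CPM (-1.26 ± 0.36, adjusted p = 0.0213), but in WENR-plus its libraries overlapped (-0.29 ± 0.36, adjusted p = 0.586). Fdft1 fell in WENR-minus from 579 and 493 CPM to 318 and 276 CPM (-0.85 ± 0.23, adjusted p = 0.0155) and was at -0.63 ± 0.23 in WENR-plus (adjusted p = 0.0653). The log2 fold changes of Sqle, Lss and Hmgcs1 ran from -0.28 to -1.05 over both media. In total 2 of 7 members fell in WENR-plus, compared with 14.8% of tested genes called lower and 9.94% higher, and 3 of 7 in WENR-minus, compared with 18.3% lower and 12.7% higher. With the mouse as a block Fdft1 passed in WENR-plus (adjusted p = 0.0189) and Sqle in WENR-minus (adjusted p = 0.0217).

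These counts depended on single libraries. In WENR-plus it was 4 without the Cdx2-sgRNA library of replicate 1, 0 without that of replicate 2, and 0 and 1 without the Scramble-sgRNA libraries of replicates 1 and 2. In WENR-minus it was 1 without the Scramble-sgRNA library of replicate 1 or the Cdx2-sgRNA library of replicate 2. Dhcr7 kept an adjusted p between 0.00439 and 0.0158 in WENR-minus when any 1 of the 4 libraries was left out, and between 0.00739 and 0.0529 in WENR-plus.

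The 2 replicates also differed from each other across members. In proximal Cdx2-sgRNA organoids replicate 1 was above replicate 2 for 7 of 7 genes in both media, by 2.77 times for Hmgcs1 and 2.23 times for Idi1 in WENR-plus and by 2.17 and 1.84 times in WENR-minus. For Dhcr7 the ratio was 1.40 and 1.06. In proximal Scramble-sgRNA organoids replicate 1 was higher for 3 of 7 genes in WENR-plus and 4 of 7 in WENR-minus. Such a shared direction was not particular to the proximal Cdx2-sgRNA lines, since replicate 1 was the higher one for 7 of 7 genes in distal Scramble-sgRNA WENR-plus, 0 of 7 in distal Scramble-sgRNA WENR-minus, and 5 and 6 of 7 in the distal Cdx2-sgRNA groups. The immune markers Cd68 and Csf1r, given above, were also higher in the proximal Cdx2-sgRNA lines, and Csf1r was at 9.11 and 1.85 CPM in WENR-plus and 19.4 and 5.66 CPM in WENR-minus, again with replicate 1 above replicate 2. Their part in the result was not tested.

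In distal organoids 1 member passed after the guide, in 1 medium. In WENR-plus the log2 fold changes ran from 0.18 (Dhcr7) to 0.63 (Lss), all above 0, and 0 of 7 passed in edgeR and DESeq2, compared with 0.262% of tested genes in edgeR; 0 members had an unadjusted p under 0.05. In WENR-minus only Dhcr7 passed, from 62.6 and 70.8 CPM to 33.5 and 34.0 CPM (-0.98 ± 0.27, edgeR adjusted p = 0.0449), so that 1 of 7 fell compared with 5.25% of tested genes called lower and 9.76% called in either direction. Without any 1 of its 4 libraries the adjusted p was 0.101 to 0.215 and the count 0. Lss was at 154 and 231 CPM against 119 and 101 CPM (-0.82 ± 0.30, adjusted p = 0.108). Insig1, at 1567 and 2169 CPM with the Scramble guide and 2031 and 1514 CPM with the Cdx2 guide, overlapped between the guides.

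The difference of the guide's effect between regions was tested directly. In WENR-plus it was below 0 for all 7 genes, from -0.90 (Insig1) to -1.60 (Idi1), and passed for Dhcr7 (-1.52 ± 0.38, edgeR adjusted p = 0.0411), 1 of 7 compared with 5.70% of tested genes, 4.29% with a difference below 0. With the mouse as a block Sqle (adjusted p = 0.0353) and Fdft1 (0.0245) passed too, and 4 members did in DESeq2. It was also 4 without the proximal Cdx2-sgRNA or the distal Scramble-sgRNA library of replicate 1. The count was 0 in a fit of these 8 libraries alone. It was also 0 without the proximal Scramble-sgRNA library of replicate 1, the proximal Cdx2-sgRNA or distal Scramble-sgRNA library of replicate 2, or either distal Cdx2-sgRNA library. In WENR-minus 0 of 7 passed in edgeR and DESeq2 compared with 17.2% of tested genes in edgeR (2 members at an unadjusted p under 0.05), with -1.19 ± 0.50 for Insig1 (adjusted p = 0.128), and with the mouse as a block Fdft1 passed (-0.80, adjusted p = 0.0423).

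Of the pathway's other 14 enzymes, 9 fell with the Cdx2 guide and 0 rose in proximal organoids, in WENR-plus (14.8% of tested genes lower) and in WENR-minus (18.3%), with a median log2 fold change of -0.90 in both. In distal organoids 0 passed in edgeR in either medium (0.262% and 9.76% of tested genes in either direction), with medians of 0.39 and -0.42; 2 of the 14 had an unadjusted p under 0.05 in each medium, and DESeq2 called 0 and 1. The difference between regions itself passed for 4 of the 14 in WENR-plus (5.70% of tested genes) and for 1 in WENR-minus (17.2%), compared with 9 and 4 in DESeq2. Tm7sf2, a sterol reductase of the endoplasmic reticulum, fell by 2.00 in WENR-minus (edgeR adjusted p = 0.000473). Mvk and Mvd, both mevalonate enzymes, fell in both media, Mvk by 1.17 (adjusted p = 0.00949) and 1.33 (adjusted p = 0.00322). Of the 10 uptake, trafficking and storage genes 1 fell and 2 rose in WENR-plus and 2 fell and 1 rose in WENR-minus, with medians of 0.18 and -0.35. Stard4, a carrier of cholesterol within the cell, fell by 1.59 ± 0.19 in WENR-plus (adjusted p = 0.000221) and by 1.85 ± 0.19 in WENR-minus (adjusted p = 5.11e-05), whereas Soat2, which esterifies cholesterol, rose from low levels (0.621 and 0.0592 CPM against 5.39 and 2.70 CPM in WENR-plus, adjusted p = 0.0241).

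Of the 10 genes of sterol sensing and SREBP processing 3 fell and 1 rose in proximal WENR-plus (14.8% and 9.94% of tested genes), with a median of -0.01, and 4 fell and 1 rose in proximal WENR-minus (18.3% and 12.7%), with a median of -0.34. Scap, its escort protein, fell in proximal WENR-plus (-0.79, edgeR adjusted p = 0.00905), as did Srebf2, which encodes SREBP2 (-0.64, adjusted p = 0.0249). Insig2, the paralog of Insig1, rose there (1.20, adjusted p = 0.0155), and in WENR-minus Erlin1 fell (-1.64, adjusted p = 0.000132). In fatty acid synthesis 6 of 10 genes fell and 1 rose in proximal WENR-plus (14.8% and 9.94% of tested genes), and 3 fell and 1 rose in proximal WENR-minus (18.3% and 12.7%), with medians of -0.88 and -0.19. In WENR-plus Acaca, the acetyl-CoA carboxylase, fell (-1.43, adjusted p = 0.000195), as did Elovl6 (-0.87, adjusted p = 0.00173), and Me1, the malic enzyme, rose (2.37, adjusted p = 0.00195). Beside these results the cell state genes Car1 (-3.16, adjusted p = 0.000239) and Muc2 (-5.96, adjusted p = 0.000873) fell and Krt20 rose (2.78, adjusted p = 0.00515) in the same comparison, and Mki67 was lower (-1.24, adjusted p = 0.0422). In WENR-minus Car1 fell by 8.88 (adjusted p = 5.49e-07) and Mki67 was higher (1.19, adjusted p = 0.0417). Of the 7 epithelial markers 2 fell and 1 rose in proximal WENR-plus (median log2 fold change -0.34), and 4 fell and 1 rose in proximal WENR-minus, with a median of -0.78 beside -0.85 for the members. Their part in the result was not tested.

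**Figure D4:**
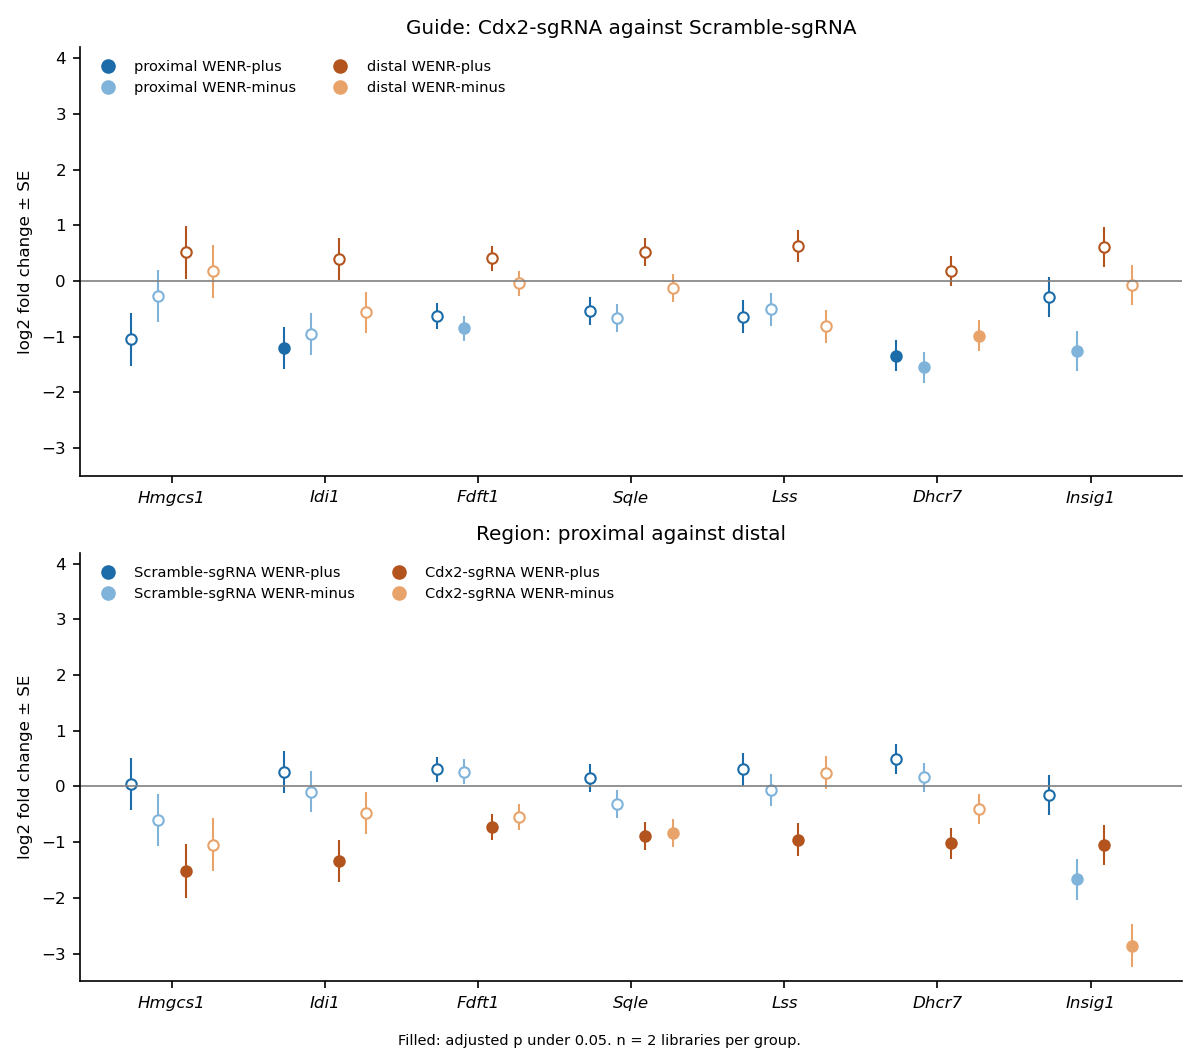
Log2 fold changes (y axis, same scale in both panels) of the 7 sterol genes (x axis) for Cdx2-sgRNA against Scramble-sgRNA (top) and proximal against distal (bottom), from edgeR with n = 2 libraries per group; bars are SE and filled points have an adjusted p under 0.05. The proximal points (blue) lie below 0 in the top panel, and Insig1 in Cdx2-sgRNA WENR-minus reaches -2.86 in the bottom panel.

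The third comparison asks whether proximal and distal organoids differ. In Scramble-sgRNA organoids in WENR-plus the libraries of the 2 regions overlapped for all 7 genes, with log2 fold changes of proximal against distal from -0.15 to 0.50, and 0 of 7 passed in edgeR and DESeq2, compared with 2.12% of tested genes in edgeR; 0 members had an unadjusted p under 0.05. In WENR-minus Insig1 was lower in proximal organoids, at 623 and 551 CPM against 1567 and 2169 CPM (-1.67 ± 0.36, 3.18-fold, edgeR adjusted p = 0.0158). It was the only member that passed, compared with 5.74% of tested genes called lower, and it did not pass without either proximal library or without the distal library of replicate 2 (adjusted p of 0.0353 to 0.116 over the 4 libraries left out).

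In Cdx2-sgRNA organoids in WENR-plus all 7 members passed and were lower in proximal organoids, compared with 18.1% of tested genes called lower and 11.2% higher. Hmgcs1 was at 388 and 140 CPM against 889 and 622 CPM (-1.52 ± 0.48, edgeR adjusted p = 0.0354), Idi1 at 195 and 87.3 CPM against 325 and 385 CPM (-1.33 ± 0.38, adjusted p = 0.0225), and the other 5 had log2 fold changes of -0.73 to -1.05 with adjusted p of 0.0167 to 0.0479. The median of the 7 was -1.02, that of the 14 other enzymes -0.75, with 9 of the 14 lower and 0 higher, and that of all tested genes -0.01. Of the 7 epithelial markers 4 were lower and 0 higher in the same comparison, with a median of -0.66. Of the 10 cell state genes 3 were lower and 1 higher, Csf1r was the 1 immune marker called (higher, 4.16), and 2 of 3 tested endothelial, muscle and glial markers were lower, from summed levels of at most 2.46 CPM in any library. Their part in the result was not tested. All 7 calls rested on each of 3 libraries, since 0 passed without either distal library or without the proximal library of replicate 2, and 2 passed in a fit of these 4 libraries alone.

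In WENR-minus Insig1 had the largest difference of the 7 in Cdx2-sgRNA organoids, at 280 and 210 CPM in proximal and 2031 and 1514 CPM in distal organoids (-2.86 ± 0.38, 7.25-fold lower, edgeR adjusted p = 0.000136). With any 1 of the 4 libraries left out its log2 fold change was -2.63 to -3.09 and its adjusted p at most 0.00227. Sqle was lower too (185 and 143 CPM against 314 and 270 CPM; -0.83 ± 0.25, adjusted p = 0.0174), and the mouse as a block added Fdft1 (-0.54, adjusted p = 0.0229). DESeq2 and edgeR with no filter on low counts called 4, adding Fdft1 and Hmgcs1 (-1.07, adjusted p = 0.0394 in DESeq2). Thus 2 of 7 passed, compared with 24.4% of tested genes called lower and 24.6% higher, a share near the members' own, and 1 of 7 passed without the distal library of replicate 1 or the proximal library of replicate 2. Lss was at 0.24 ± 0.29 (adjusted p = 0.512), with overlapping libraries. Of the 14 other enzymes 4 were lower and 2 higher, and of the 7 epithelial markers 5 were lower and 1 higher, with a median of -0.86. Of the 10 cell state genes 5 were higher and 2 lower (median 1.19), both tested immune markers, Csf1r and Cd68, were higher, and of the 3 tested endothelial, muscle and glial markers 2 were lower and 1 higher. Their part in the result was not tested. Of the 10 uptake, trafficking and storage genes 7 were lower and 1 higher, among them Stard4 (-1.60, adjusted p = 6.74e-05), the lipoprotein receptor Scarb1 (-1.78, adjusted p = 9.80e-05) and Npc1 (-1.51, adjusted p = 0.00164). The exporter Abcg5 was at 32.2 and 17.3 CPM in distal Cdx2-sgRNA WENR-minus libraries and had at most 2 reads in a proximal Cdx2-sgRNA one.

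The comparisons above share libraries, since each group enters 3 comparisons of 2 groups and differences of effects besides, and their values for a member are not independent of each other. With a call that also required an absolute log2 fold change over 1, the members called moved to 1 of 7 in the medium comparison of proximal Cdx2-sgRNA organoids (6.40% of tested genes), 1 in that of distal Cdx2-sgRNA organoids (33.1%), 0 for the guide in distal WENR-minus (5.25%), 4 for region in Cdx2-sgRNA WENR-plus (17.0%) and 1 for region in Cdx2-sgRNA WENR-minus (34.6%).

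Lss differed from the other members in which of its transcripts took the reads. For the other 6 a protein-coding transcript held most reads, whereas Lss reads were divided between Lss-201, which is protein coding (49.9% of all Lss reads), and Lss-204, a transcript with a retained intron (44.2%), which total RNA libraries can hold as unspliced RNA. The share of Lss-201 was 26.1 to 54.2% in WENR-plus and 35.7 to 72.4% in WENR-minus libraries, and it was higher in WENR-minus in 8 of 8 cultures, by 9.60 to 21.5 percentage points. In distal Cdx2-sgRNA organoids Lss-201 was at 81.2 and 71.9 CPM with the factors and 85.8 and 57.8 CPM without them, so the lower gene total in WENR-minus lay with Lss-204 (60.5 and 77.8 CPM against 32.2 and 38.5 CPM). This split was examined after the values of Lss were seen, and Salmon's division of reads between overlapping transcripts is an estimate.

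**Figure D5:**
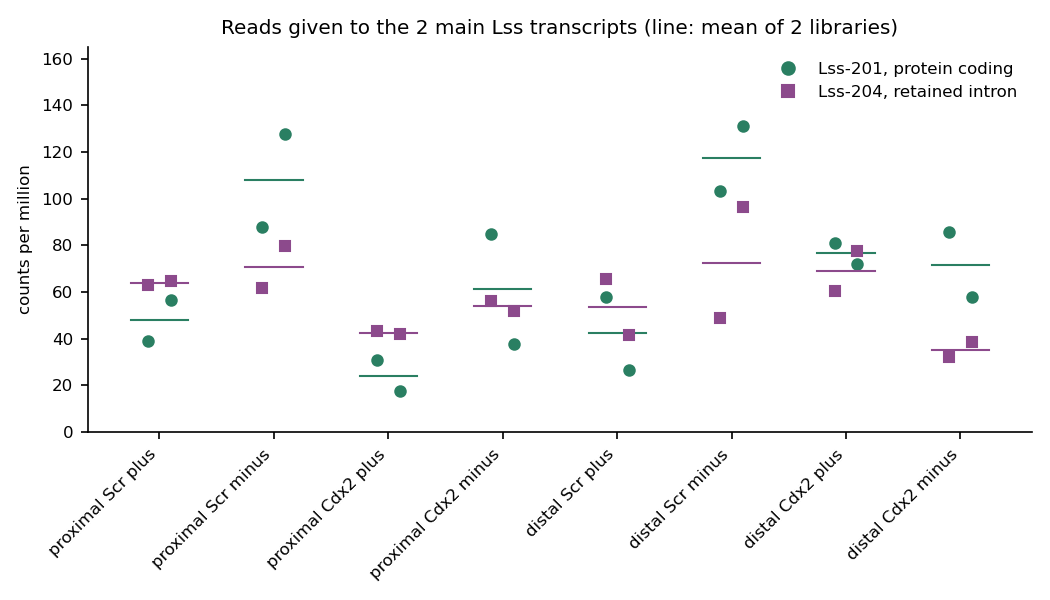
CPM (y axis, from 0) of the protein-coding transcript Lss-201 (green circles) and the retained-intron transcript Lss-204 (purple squares) in the 2 libraries of each group (x axis), with replicate 1 on the left and replicate 2 on the right; lines are the mean of 2 libraries. Green lies above purple on average in all 4 WENR-minus groups, and below it in 3 of the 4 WENR-plus groups.

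The genes most like the members over the 16 libraries were ranked by Pearson's r between their log2 CPM and the mean of the members' standardised log2 CPM, among 15282 other tested genes with a median r of -0.09. The most alike was Cyp51, the lanosterol demethylase that acts just after Lss (r = 0.96), and Hsd17b7 (r = 0.94) and Nsdhl (r = 0.93), both of the demethylation complex that follows, were among the first 8. The others among the first 10 that are named here were Cmpk1, Plcd1, Dusp8, Ifit1, Uba1 and Mvp, with r of 0.93 to 0.94. In all 762 genes had r above 0.8, and points share medium, guide and mouse.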

How the data were processed

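Total RNA of 16 organoid libraries (8 groups of 2) was converted with the SMARTer Stranded Total RNA chemistry, which marks the strand. The authors quantified reads per transcript with Salmon 1.1.0 on GENCODE vM23 transcripts and deposited, for each library, estimated counts, TPM (transcript abundances) and effective lengths per transcript; the submitters' processing notes also list DESeq2 1.32. Estimated counts were summed here per gene over 140748 transcripts, 139864 of which matched the vM21 annotation (GRCm38) by identifier without its version, and rounded to whole counts; the unmatched transcripts held 0.257 to 0.509% of counts. TPM were summed likewise.

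The test was edgeR 4.0.16 (R 4.3.3), with the quasi-likelihood fit of all 16 libraries as 8 groups, TMM scaling, the default filter on low counts (15289 genes kept) and Benjamini-Hochberg adjustment over all genes within each of 17 comparisons. Calls are adjusted p values under 0.05. CPM used TMM library sizes. Standard errors came from the fold change and its F statistic. The replicate number is taken as the mouse and would then pair the groups, which the labels do not state. Over 28 pairs of groups the deviations of same-numbered libraries correlated at -0.0594 to 0.589 (median 0.0729, 9 pairs above 0.1). With 2 mice, p-values measure the spread between these libraries. On simulated counts, 89.5% of changes of 2, 23.2% of 1 and 5.41% of 0.7 (log2) were recovered in the proximal Scramble-sgRNA medium comparison (14710 genes). The simulation changed only 57, 69 and 74 genes, whereas 4490 genes were called in the real comparison. With fewer changed genes the adjustment is stricter, so these shares do not give the recovery in the real comparison. Mitochondrial rRNA took 15.4 to 28.0% of counts, and TMM factors ran from 0.656 to 1.31. The factors were lowest in the distal WENR-minus libraries, at 0.656 to 0.804, so that comparisons in CPM with these libraries depend on the scaling.

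The members and gene lists were chosen with earlier results of these data known. Members are named in each comparison, and from each other list at most 4 genes with the smallest adjusted p; cell state genes are named beside medium and guide results. Alternatives were DESeq2 1.42.0, RLE scaling, no filter on low counts, at least 10 counts in every library, length-scaled counts, mitochondrial rRNA left out, a mouse or culture block, a fit of each comparison's own libraries, a log2 threshold of 1 and each library left out. Some genes of the pathway are not reported here.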

Additional observations from a re-analysis of the deposited data

Results flagged for a closer look

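The effect of the Cdx2 guide on Dhcr7 differed between proximal and distal organoids in WENR-plus. The difference of the log2 fold changes, tested as an interaction in edgeR, was -1.52 ± 0.38 (SE, adjusted p = 0.0411), with an effect of -1.34 in proximal and 0.18 in distal organoids. With 1 library left out it ranged from -2.01 to -1.15 and its adjusted p from 0.00842 to 0.145, and 4.29% of all tested genes had a difference called in this direction.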

How the results depend on the processing

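Among the members' results, 1029 values under other settings kept their direction and their side of the threshold, 68 newly passed, 23 no longer passed and 0 changed direction. Every setting scaled libraries by TMM, RLE or DESeq2 factors, so these counts do not cover scaling without them. In mean TPM, Fdft1 was at 168 in proximal and 164 in distal Cdx2-sgRNA WENR-minus organoids. Dhcr7 in proximal Scramble-sgRNA organoids was at 46.3 TPM in WENR-plus and 46.2 TPM in WENR-minus. With 1 library left out 511 stayed, 14 newly passed, 56 no longer passed and 35 changed direction. The number of the 7 members called moved by over 1.5 times in the cases that follow. With no filter on low counts, the medium comparison gave 5 (proximal Scramble-sgRNA), 5 (proximal Cdx2-sgRNA) and 7 (distal Scramble-sgRNA), the guide comparison 4 (proximal WENR-plus), 5 (proximal WENR-minus) and 2 (distal WENR-minus), the region comparison 4 (Cdx2-sgRNA WENR-minus), and the differences of effects 6 and 1 (guide by region in WENR-plus and WENR-minus), 1 and 2 (medium by guide in proximal and distal) and 1 (region by medium). With DESeq2 the count was 7 for medium in distal Scramble-sgRNA, 2 for the guide in distal WENR-minus, 4 for region in Cdx2-sgRNA WENR-minus, 4 for guide by region in WENR-plus and 1 for medium by guide in distal organoids. With the replicate block (the mouse) it was 3 for guide by region in WENR-plus and 1 in WENR-minus, and beside the calls it added in the report the pairing changed no other call of a member. With the culture as a block it was 4 for medium in proximal Cdx2-sgRNA and 7 in distal Scramble-sgRNA. With only a comparison's own libraries it was 0 for medium in proximal Cdx2-sgRNA, 6 in distal Cdx2-sgRNA (4 higher, 2 lower), 1 for the guide in proximal WENR-plus, 2 for region in Cdx2-sgRNA WENR-plus and 0 for guide by region in WENR-plus. With a log2 threshold of 1 it was 1 for medium in proximal and in distal Cdx2-sgRNA, 0 for the guide in distal WENR-minus, 4 for region in Cdx2-sgRNA WENR-plus and 1 in WENR-minus.

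With 1 library left out the count ranged, for medium, from 2 to 3 (proximal Scramble-sgRNA), 0 to 4 (proximal Cdx2-sgRNA), 3 to 5 (distal Scramble-sgRNA) and 1 to 3 (distal Cdx2-sgRNA); for the guide, from 0 to 4 (proximal WENR-plus), 1 to 4 (proximal WENR-minus) and was 0 in both distal comparisons; for region, from 0 to 6 (Cdx2-sgRNA WENR-plus), 0 to 1 (Scramble-sgRNA WENR-minus) and 1 to 3 (Cdx2-sgRNA WENR-minus); and for guide by region in WENR-plus from 0 to 4. Results that were not called and changed direction had these ranges of log2 fold change: medium in proximal Cdx2-sgRNA, Dhcr7 -0.085 to 0.41; guide in distal WENR-plus, Dhcr7 -0.16 to 0.70; guide in proximal WENR-minus, Hmgcs1 -0.91 to 0.18; guide in distal WENR-minus, Fdft1 -0.19 to 0.091 and Insig1 -0.30 to 0.18; region in Scramble-sgRNA WENR-plus, Hmgcs1 -0.28 to 0.39, Sqle -0.15 to 0.58, Lss -0.0051 to 0.74 and Insig1 -0.58 to 0.51; region in Scramble-sgRNA WENR-minus, Idi1 -0.38 to 0.27 and Lss -0.32 to 0.26; region in Cdx2-sgRNA WENR-minus, Lss -0.051 to 0.47; guide by region in WENR-minus, Hmgcs1 -1.08 to 0.0069 and Lss -0.018 to 0.57; medium by guide in proximal organoids, Sqle -0.40 to 0.21, Fdft1 -0.50 to 0.12, Idi1 -0.25 to 0.94, Lss -0.17 to 0.35 and Dhcr7 -0.54 to 0.053; region by medium, Fdft1 -0.37 to 0.17 and Idi1 -0.68 to 0.019. Over all genes, the guide in distal WENR-plus called 40, but 212 with DESeq2, 682 with no filter and 4 with its own libraries, and medium in proximal Cdx2-sgRNA called 2063, but 0 with its own libraries. The cause of these moves was not tested. The members had 353 reads or more in each library.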
